A study of Mus musculus with 3 samples.

Results

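The antioxidant defence genes Cat, Sod1, Sod2, Sod3, Gpx1, Gpx3, Gpx4, Prdx1, Txnip and Gstp1, were followed across the nonhematopoietic cells of the aged mouse thymus. They were taken by symbol and are 10 of the 32293 features counted. The main question was whether catalase, the product of Cat, differed in thymic epithelial cells (TECs) from the rest of the stroma.

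The data were single-cell RNA counts of CD45- thymic cells from untreated C57BL/6 mice aged 20 months. There were 3 libraries, each the sole library of its group: Foxn1 lineage trace female (Foxn1Lin female), Foxn1 lineage trace male (Foxn1Lin male) and wild type male. Lineage trace mice carry Foxn1-cre and a tdTomato reporter at Rosa26 that Cre switches on, so the mark depends on the Foxn1 promoter, which is active in TECs and in some skin epithelium. The protocol shared by the libraries describes pooled thymi of female mice, although the sex labels of both other libraries read male. The wild type male library is titled CD45- but its cell type field reads CD45-PECAM1+. Since it held TECs, fibroblasts (FBs) and mural cells in number, it was kept, and results were also computed without it.

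Aerobic cells make superoxide and hydrogen peroxide as by-products, and these damage lipids, proteins and DNA. Superoxide dismutases turn superoxide into hydrogen peroxide, which catalase in peroxisomes, glutathione peroxidases and peroxiredoxins then break down. Thymic stromal cells, and TECs in particular, have been described as poor in catalase, and oxidative damage has been linked to thymic involution.

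Cells were classed by unique molecular identifier (UMI) counts of marker genes. TECs had 2 or more Epcam UMIs, endothelial cells (ECs) 2 or more of Pecam1, FBs 2 or more of Pdgfra, and mural cells 5 or more of Rgs5 and Acta2 together. With libraries in the order Foxn1Lin female, Foxn1Lin male and wild type male, which is used throughout, there were 475, 427 and 871 TECs, 1903, 818 and 859 ECs, 1875, 864 and 1713 FBs, and 433, 449 and 355 mural cells. Barcodes in more than 1 class (529, 173 and 430) were dropped, and 3263, 703 and 1028 stayed unclassified. Each class carried its own markers, but the lists include the genes that define the classes, so part of each sum follows from the rule. The 8 TEC markers summed in TECs to 7114 to 8947 CPM (UMIs scaled to a class total of 1000000) and 94.1 to 448 elsewhere. The 7 FB markers summed to 14443 to 17462 CPM in FBs, the 9 EC markers to 7960 to 8324 CPM in ECs, and the 7 mural markers to 14206 to 16464 CPM in mural cells. FB markers reached 1166 to 1375 CPM in mural cells, and the 4 Ccl21a TEC markers, of which Ly6a, Itga6 and Itgb4 are not particular to epithelium, 1778 to 2125 CPM in ECs. The 4 Aire TEC markers summed to 205, 511 and 820 CPM in ECs and 1703, 1242 and 1181 CPM in TECs, and in ECs 184, 508 and 812 CPM of this was Ubd, while Aire itself was at 9.30, 1.58 and 4.40 CPM. The 4 parathyroid markers (Gcm2, Pth, Casr and Chga) summed to 2766, 5158 and 2738 CPM in TECs, and the source of this RNA was not tested. Only 7, 4 and 2 TEC barcodes met the rule for parathyroid cells, which uses UMIs of Gcm2 or Pth. Totals were 53366016, 33386621 and 61258534 UMIs over 8616, 3583 and 5478 called barcodes, and 26.5%, 12.9% and 9.46% of all UMIs lay outside them. Between 3 and 14 called barcodes were shared by a pair of libraries.

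Promoter sequences are shown for Cat, the gene of the main question, and Gpx3, the gene with the largest called differences within TECs and within FBs. They run from 250 bases before to 50 after the start in RefSeq (GRCm38.p6), 5′ to 3′ in the direction of transcription. Cat lies on the minus strand (chr2:103485104-103485403) and Gpx3 on the plus strand (chr11:54902604-54902903). Capitals mark matches on either strand to the GC box GGGCGG, the CCAAT box CCAAT and the antioxidant response element TGACNNNGC, the sequence bound by NRF2.
Cat: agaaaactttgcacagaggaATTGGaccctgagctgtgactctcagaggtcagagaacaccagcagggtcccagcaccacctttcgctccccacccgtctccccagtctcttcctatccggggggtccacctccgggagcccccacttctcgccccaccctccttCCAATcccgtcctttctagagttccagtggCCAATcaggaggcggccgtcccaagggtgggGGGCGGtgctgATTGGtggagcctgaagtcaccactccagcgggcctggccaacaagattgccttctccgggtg
Gpx3: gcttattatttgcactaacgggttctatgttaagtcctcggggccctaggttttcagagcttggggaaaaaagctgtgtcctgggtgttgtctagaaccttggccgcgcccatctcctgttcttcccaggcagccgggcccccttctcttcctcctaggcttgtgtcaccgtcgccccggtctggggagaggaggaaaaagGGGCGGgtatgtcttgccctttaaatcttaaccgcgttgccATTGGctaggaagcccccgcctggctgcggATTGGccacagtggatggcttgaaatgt
The Cat window held 1 GC box and 4 CCAAT boxes, and the Gpx3 window 1 GC box and 2 CCAAT boxes. Of the 10 genes, 9 had an entry, with 12 promoters in all, and Sod3 had none. The whole Cat gene spans chr2:103453849-103485160, and Gpx3 spans chr11:54902453-54910377. Of the 12 promoters, 4 belong to Gpx4 and 2 of these overlap, so counts are also given by gene. A GC box was present in 11 of the 12 and in 9 of 9 genes, where 35.7% of 32851 promoters of the same length held one. A CCAAT box was present in 8 promoters and 6 genes (37.4% of all promoters), the TATA box TATAAA in 2 of each (13.6%) and the antioxidant response element in 2 of each (12.4%), those of Prdx1 and Sod1.

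Cat transcripts were most abundant in FBs in each library. Cat reached 41.1, 29.3 and 42.3 CPM in FBs, 34.3, 22.0 and 34.8 in TECs, 28.6, 24.4 and 28.6 in ECs, and 29.4, 17.5 and 27.7 in mural cells. As means over libraries these were 37.6 ± 7.16 CPM (SD, n = 3) in FBs, 30.4 ± 7.26 in TECs, 27.2 ± 2.39 in ECs and 24.9 ± 6.46 in mural cells. The means of all other classes lay within 1 SD of the TEC mean, TECs were above ECs in 2 of 3 libraries, and the Foxn1Lin male library was the lowest of the 3 in every class.

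Empty droplets, barcodes with too few UMIs to hold a cell, had a higher Cat level than any class, with 55.9, 41.6 and 43.5 CPM. Cat in TECs was 61.4%, 52.8% and 79.9% of that level. Sod3, by contrast, reached 51.0, 80.2 and 104 CPM in empty droplets and 8.10, 1.39 and 2.68 CPM in TECs, which is 15.9%, 1.74% and 2.58% of the level outside cells. In ECs, Sod3 stood at 26.8%, 19.7% and 19.4% of it.

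**Figure D1:**
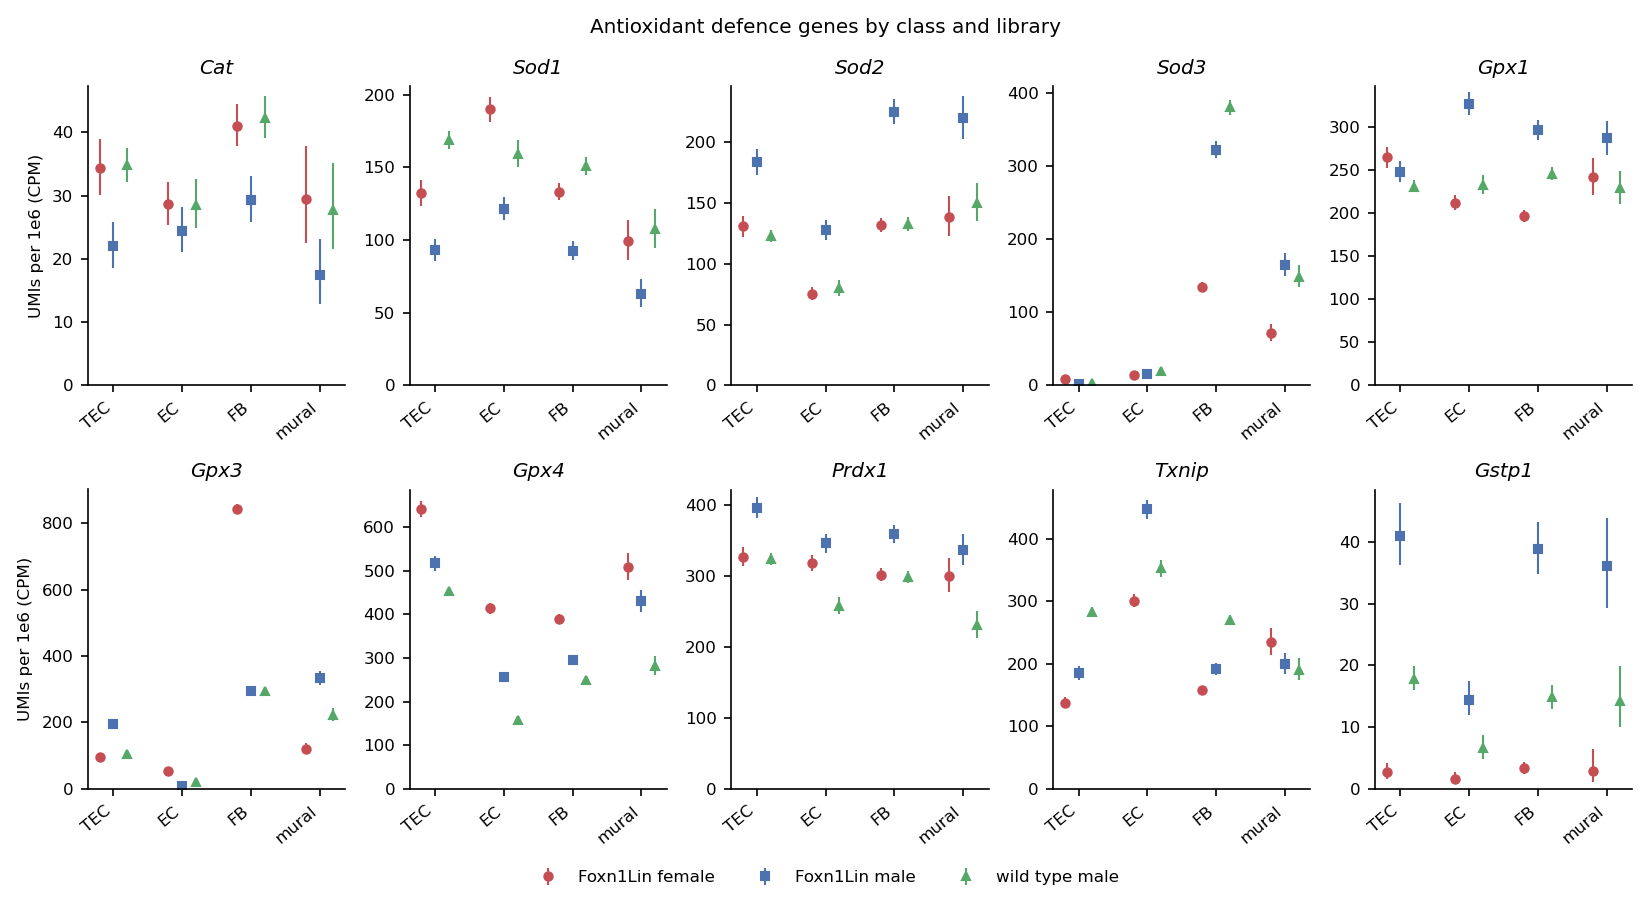
CPM of each of the 10 genes (y axis, linear, from 0) in TECs, ECs, FBs and mural cells (x axis). Points are single libraries and bars are 95% exact Poisson intervals, which cover counting error only. Sod3 was near 0 in TECs and ECs, Cat was highest in FBs in each library, and Gstp1 separated the libraries more than the classes.

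The share of cells with a Cat UMI was compared at equal depth. Without adjustment, 28.0%, 20.1% and 34.3% of TECs and 24.4%, 24.0% and 28.9% of FBs had a Cat UMI, where TECs had a median of 11005, 12461 and 16229 UMIs and FBs 7445, 9387.5 and 8233. Cells were then thinned to 2000 UMIs, and those with fewer were left out (13, 17 and 22 TECs, 297, 25 and 41 ECs, 32, 3 and 22 FBs, and 34, 13 and 9 mural cells). After thinning, the Cat shares were 5.19%, 4.39% and 5.65% in TECs and 7.54%, 4.99% and 8.99% in FBs. ECs had 5.85%, 5.30% and 5.75%, and mural cells 6.02%, 3.67% and 6.36%. The exact Clopper-Pearson interval of the TEC share was 4.20 to 7.43% in the wild type male library, below that of FBs (7.67 to 10.5%). In both lineage trace libraries the intervals overlapped. A single molecule per cell sets these shares, so they do not tell cells that lack catalase from cells in which it was not sampled.

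Summed counts per library and class were compared with edgeR, with the library as a block, and P values were adjusted over all 16617 genes tested. These P values measure how far class differences varied among 3 libraries that also differ in sex and genotype. Differences shared by all classes of a library are taken up by the block. TECs were compared with the mean of ECs, FBs and mural cells. For Cat the difference on the log2 scale was -0.30, with an SE of 0.11, and passed the test (edgeR adjusted P = 0.0349). The per-library log2 ratios of CPM were 0.07, -0.08 and 0.11, so the sign of this difference depended on scaling. The trimmed mean scaling of edgeR (TMM) places TECs 0.34 log2 units lower than scaling by library size alone, under which the median of all genes moved to 0.39 and Cat to 0.04 (edgeR adjusted P = 0.764). The adjusted P for Cat ranged from 0.0350 to 0.764 over 17 alternatives and was under the threshold in 5 of them. Leaving out the Foxn1Lin female, Foxn1Lin male or wild type male library gave -0.33, -0.25 and -0.32, with edgeR adjusted P of 0.0790, 0.181 and 0.175. The call for Cat thus did not hold without any 1 library.

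Against single classes, Cat was lower in TECs than in FBs (log2 fold change -0.64 ± 0.13, edgeR adjusted P = 0.00213, lower in 3 of 3 libraries). This call was kept without each library, while library size alone gave -0.31 (edgeR adjusted P = 0.0637). Cat in TECs did not pass the test against ECs (-0.24 ± 0.13, edgeR adjusted P = 0.141) or mural cells (-0.02 ± 0.14, edgeR adjusted P = 0.989). FBs had more Cat than mural cells (0.62 ± 0.13, edgeR adjusted P = 0.00807) and more than ECs, with EC minus FB at -0.41 ± 0.13 (edgeR adjusted P = 0.0283). Without the Foxn1Lin male or wild type male library, the adjusted P of FB minus mural was 0.0655 and 0.0861 (edgeR), and EC minus FB lost its call without the Foxn1Lin female or wild type male library (edgeR adjusted P = 0.149 and 0.202). ECs and mural cells were not separated (0.21 ± 0.14, edgeR adjusted P = 0.245). Erythroid RNA, which can carry Cat, summed to 3070, 1044 and 512 CPM over 4 hemoglobin genes in ECs and to 656, 0.348 and 0.393 in FBs, and its part in the EC values was not tested.

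Of the 10 genes, 1 was higher and 5 were lower in TECs than in other stroma, where 31.4% and 27.5% of all genes tested were called higher and lower. The median log2 fold change was -0.27 over the 10 genes and 0.05 over all genes tested. Of all calls, 53.3% were higher in TECs under TMM and 73.0% with library size alone, where 62.8% of all genes were called. The split of the 10 genes changed with the scaling. With library size alone 2 were higher (Gpx4 at 0.76 and Gstp1 at 0.52) and 1 was lower (Sod3 at -4.33), and with DESeq2 size factors 1 was higher (Gpx4) and 2 were lower (Sod3 and Txnip).

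**Figure D2:**
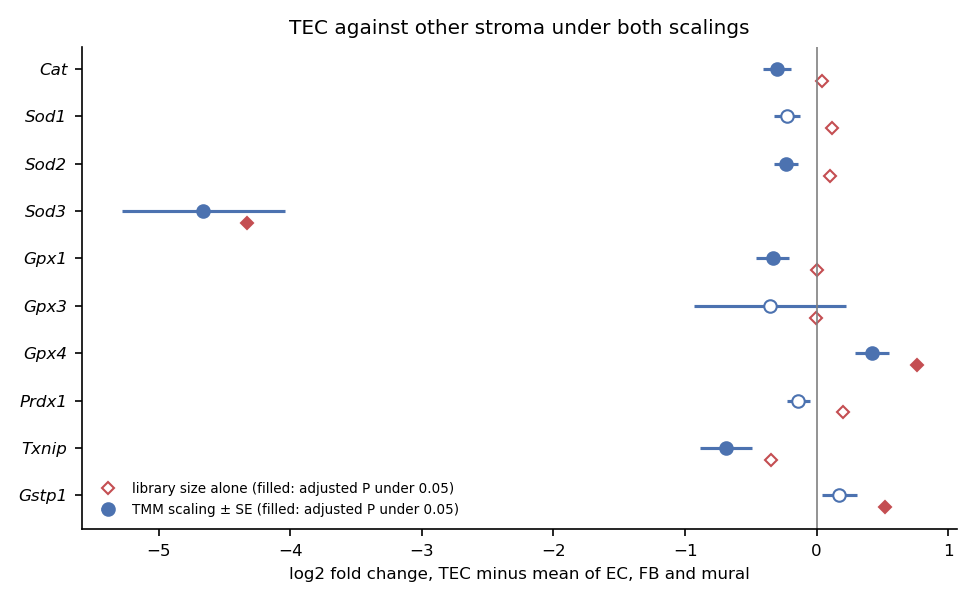
Log2 fold change of each gene in TECs against the mean of ECs, FBs and mural cells (x axis) for the 10 genes (y axis). Circles with SE bars are the TMM fit and diamonds the fit scaled by library size alone, with filled symbols past the adjusted P of 0.05. Sod3 and Gpx4 were filled under both scalings, whereas Cat moved from -0.30 to 0.04.

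Sod3, the secreted superoxide dismutase of the extracellular space, set the classes apart most. Its gene lies on chromosome 5 (chr5:52363791-52371418). Sod3 reached 135, 323 and 381 CPM in FBs and 71.6, 165 and 149 CPM in mural cells. ECs had 13.6, 15.8 and 20.2 CPM of Sod3, and TECs 8.10, 1.39 and 2.68 CPM, so that neither range overlapped with FBs or mural cells. After thinning, 21.2%, 34.0% and 37.2% of FBs and 1.95%, 0% and 0.471% of TECs had a Sod3 UMI. In the Foxn1Lin male library this was 0 of 410 thinned TECs, although 9 Sod3 UMIs were present before thinning, so the 0 sets no limit on expressing cells. Sod3 was lower in TECs than in other stroma (-4.66 ± 0.62, edgeR adjusted P = 1.9e-04) and under each of the 17 alternatives (-6.58 to -4.11).

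Sod1, the cytosolic copper-zinc dismutase, reached 132, 93.1 and 169 CPM in TECs, 190, 121 and 159 in ECs, 133, 92.4 and 151 in FBs, and 99.1, 63.1 and 107 in mural cells. ECs had more Sod1 than mural cells (0.87 ± 0.12, edgeR adjusted P = 5.2e-04), which were the lowest class in each library. Sod2, the manganese dismutase of mitochondria, ran the other way between these classes. Sod2 stood at 75.2, 128 and 79.8 CPM in ECs against 138, 220 and 150 in mural cells, 132, 225 and 133 in FBs, and 131, 184 and 123 in TECs. ECs were lower in Sod2 than FBs (-0.75 ± 0.11, edgeR adjusted P = 6.2e-04) and mural cells (-0.81 ± 0.11, edgeR adjusted P = 4.8e-04), in 3 of 3 libraries each. Sod2 was also called lower in TECs than in other stroma, a call kept in 6 of 17 alternatives and with its sign changed in 1. Against FBs alone and mural cells alone it was called lower in TECs, each kept in 13 of 17 alternatives.

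Gpx4, the glutathione peroxidase that reduces lipid peroxides in membranes, was the gene higher in TECs. Gpx4 reached 642, 517 and 454 CPM in TECs, 414, 256 and 157 in ECs, 390, 296 and 250 in FBs, and 510, 430 and 283 in mural cells. TECs had the highest value in each library (0.42 ± 0.13, edgeR adjusted P = 0.0183; 0.76 with library size alone). Without the Foxn1Lin male or wild type male library the adjusted P rose to 0.103 and 0.114 (edgeR). After removal of barcodes with hematopoietic UMIs (any of Ptprc, Cd3e, Cd79a, Lck or Tyrobp) the adjusted P was 0.0797 (edgeR). Gpx4 and Prdx1 have processed pseudogenes that may share reads with them, so their levels carry that uncertainty. Against mural cells alone Gpx4 did not pass (0.11 ± 0.16, edgeR adjusted P = 0.584).

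Gpx3, the secreted glutathione peroxidase, was an FB transcript above all in the Foxn1Lin female library. Gpx3 reached 844, 294 and 294 CPM in FBs, 121, 332 and 223 in mural cells, 96.8, 194 and 103 in TECs, and 52.3, 6.70 and 19.9 in ECs. FBs and mural cells overlapped, and ECs were lowest in each library. EC minus FB was -4.16 ± 0.77 (edgeR adjusted P = 0.00208) and TEC minus EC was 2.13 ± 0.74 (edgeR adjusted P = 0.0331). The latter was 3.04 without the Foxn1Lin female library, and its call was lost without the Foxn1Lin male (1.24, edgeR adjusted P = 0.166) or wild type male library (2.21, edgeR adjusted P = 0.170). TEC minus FB was -2.03 ± 0.71 (edgeR adjusted P = 0.0353), with -1.33 without the Foxn1Lin female, -2.76 without the Foxn1Lin male and -2.16 without the wild type male library, and the last of these missed the threshold (edgeR adjusted P = 0.166).

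Gpx1, the cytosolic glutathione peroxidase, varied little between classes. Its CPM values were 265, 248 and 231 in TECs, 212, 327 and 233 in ECs, 197, 296 and 246 in FBs, and 242, 287 and 229 in mural cells. The difference of Gpx1 between TECs and other stroma was -0.34 ± 0.13 (edgeR adjusted P = 0.0448) and 0.00 with library size alone. It was -0.51 without the Foxn1Lin female library, and the call was lost without the Foxn1Lin male (-0.20) or wild type male library (-0.30). Prdx1, a peroxiredoxin that reduces hydrogen peroxide with electrons from thioredoxin, spanned 231 to 396 CPM over all classes and libraries and passed no test between classes.

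Txnip encodes an inhibitor of thioredoxin that responds to glucose. Txnip stood at 138, 185 and 282 CPM in TECs, 301, 447 and 353 in ECs, 157, 191 and 270 in FBs, and 235, 200 and 191 in mural cells, with ECs highest in each library. TECs were lower in Txnip than ECs (-1.27 ± 0.24, edgeR adjusted P = 0.00148) in all 17 alternatives. Against other stroma Txnip was lower in TECs (-0.69 ± 0.20, edgeR adjusted P = 0.014), but the call was lost with library size alone (-0.35, edgeR adjusted P = 0.161) and without the Foxn1Lin male library (-0.62, edgeR adjusted P = 0.102).

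Gstp1, a glutathione transferase, differed more between libraries than between classes. It reached 2.65, 41.0 and 17.8 CPM in TECs, 1.65, 14.5 and 6.54 in ECs, 3.28, 38.8 and 14.8 in FBs, and 2.94, 36.1 and 14.3 in mural cells. In each class the exact Poisson interval of the Foxn1Lin female library lay below those of both male libraries, as from 1.57 to 4.19 CPM in TECs against 15.9 to 19.9 in wild type males. The Foxn1Lin female and Foxn1Lin male libraries share a genotype label. Sex and library cannot be told apart in this difference, and it has no replicate check. Gstp2, a near-identical copy that may share reads with Gstp1, had 0.295, 0.774 and 0.601 CPM in TECs against a mean of 1.68, 1.80 and 1.29 in the other classes. Reads shared by the copies were not measured, so the Gstp1 values are uncertain to an extent that the Gstp2 values do not limit. Gstp3, a more distant relative, had 14.1, 13.5 and 7.43 CPM in TECs against 0.829, 0.874 and 0.892. Gstp2 and Gstp3 were named here after their values were seen. ECs were lower in Gstp1 than FBs (-1.19 ± 0.17, edgeR adjusted P = 4.9e-04).

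Over pairs of classes, 6 of the 10 genes were called between TECs and ECs (57.4% of all genes), 5 between TECs and FBs (56.1%) and 2 between TECs and mural cells (50.5%). Between ECs and FBs 7 were called (42.0% of all genes), between ECs and mural cells 7 (39.8%), and between FBs and mural cells 2, Cat and Sod1 (30.0%).

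TECs were then divided by marker UMIs into Psmb11-high (2 or more, a cortical proteasome subunit), Aire-high (2 or more, the autoimmune regulator of medullary TECs), Ccl21a-high (10 or more, a chemokine of immature medullary TECs) and remaining TECs. These held 65, 11 and 64, then 116, 64 and 155, then 44, 74 and 95, and 232, 271 and 534 cells. The marker lists of the subsets include Aire, Ccl21a and Psmb11 themselves, so part of each sum follows from the rule. The 4 Aire TEC markers summed to 4277, 4166 and 4251 CPM in Aire-high TECs, and the 4 Ccl21a TEC markers to 8575, 11336 and 7394 CPM in Ccl21a-high TECs. The 5 cortical markers summed to 13150 and 11143 CPM in the Psmb11-high cells of the Foxn1Lin female and wild type male libraries but to 1486 CPM in the 11 cells of the Foxn1Lin male library. Those 11 cells were therefore called by their rule only.

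Cat levels ran from 12.8 to 56.5 CPM among subsets of TECs and from 17.5 to 42.3 CPM among the 4 classes. Aire-high TECs had 46.4, 34.6 and 56.5 CPM of Cat, remaining TECs 32.7, 20.0 and 32.0, Psmb11-high TECs 19.8, 18.7 and 27.4, and Ccl21a-high TECs 16.9, 12.8 and 15.5. The order was the same in each library, and the Aire-high and Ccl21a-high values did not overlap. Aire-high TECs also lay above FBs (41.1, 29.3 and 42.3 CPM) in each library, a comparison that was not tested. The subset values rest on 45 to 205 Cat UMIs per library in Aire-high TECs, and on 8, 14 and 22 in Ccl21a-high TECs. In the Foxn1Lin male library Psmb11-high TECs were 11 cells, and their 18.7 CPM lay close to the 20.0 of remaining TECs.

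Cat was higher in Aire-high than in Ccl21a-high TECs (log2 fold change 1.65 ± 0.22, edgeR adjusted P = 1.98e-04 over 13028 genes) and than in Psmb11-high TECs (1.13 ± 0.21, edgeR adjusted P = 0.00111). Both calls were kept in all 10 alternatives, each left-out library included. Library size alone, cell filters, doublet removal and empty-droplet RNA taken off were not tried for the subsets. Aire-high minus remaining TECs was 0.73 ± 0.18 (edgeR adjusted P = 0.00901), with 0.0724 without the Foxn1Lin male and 0.159 without the wild type male library. Ccl21a-high minus remaining TECs was -0.91 ± 0.22 (edgeR adjusted P = 0.0349), and the call was lost without any 1 library (edgeR adjusted P = 0.114, 0.132 and 0.369). Psmb11-high TECs did not pass the test against remaining (-0.40 ± 0.20, edgeR adjusted P = 0.202) or Ccl21a-high TECs (0.51 ± 0.24, edgeR adjusted P = 0.199).

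The 10 hematopoietic markers summed to 1609, 1634 and 1366 CPM in Aire-high TECs, 696, 241 and 232 in remaining TECs and 203, 68.4 and 18.3 in Ccl21a-high TECs. Removal of barcodes with hematopoietic UMIs covered Ptprc, Cd3e, Cd79a, Lck and Tyrobp only, so RNA of the other markers could remain. It took Aire-high TECs from 116, 64 and 155 cells to 88, 57 and 134, and Psmb11-high TECs from 65, 11 and 64 to 32, 11 and 47. Cat in Aire-high minus Ccl21a-high TECs was then 1.65 (edgeR adjusted P = 4.8e-04) and in Aire-high minus remaining TECs 0.77 (edgeR adjusted P = 0.0147). Aire-high TECs were also deeper than remaining TECs, with medians of 13239.5, 20943.5 and 21457 UMIs against 8406.5, 10501 and 13493.5. After thinning, the share with a Cat UMI was 3.45%, 6.25% and 8.50% in Aire-high and 6.39%, 4.31% and 5.05% in remaining TECs, so the order in the Foxn1Lin female library was the opposite of that by CPM and no order was read from the shares.

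**Figure D3:**
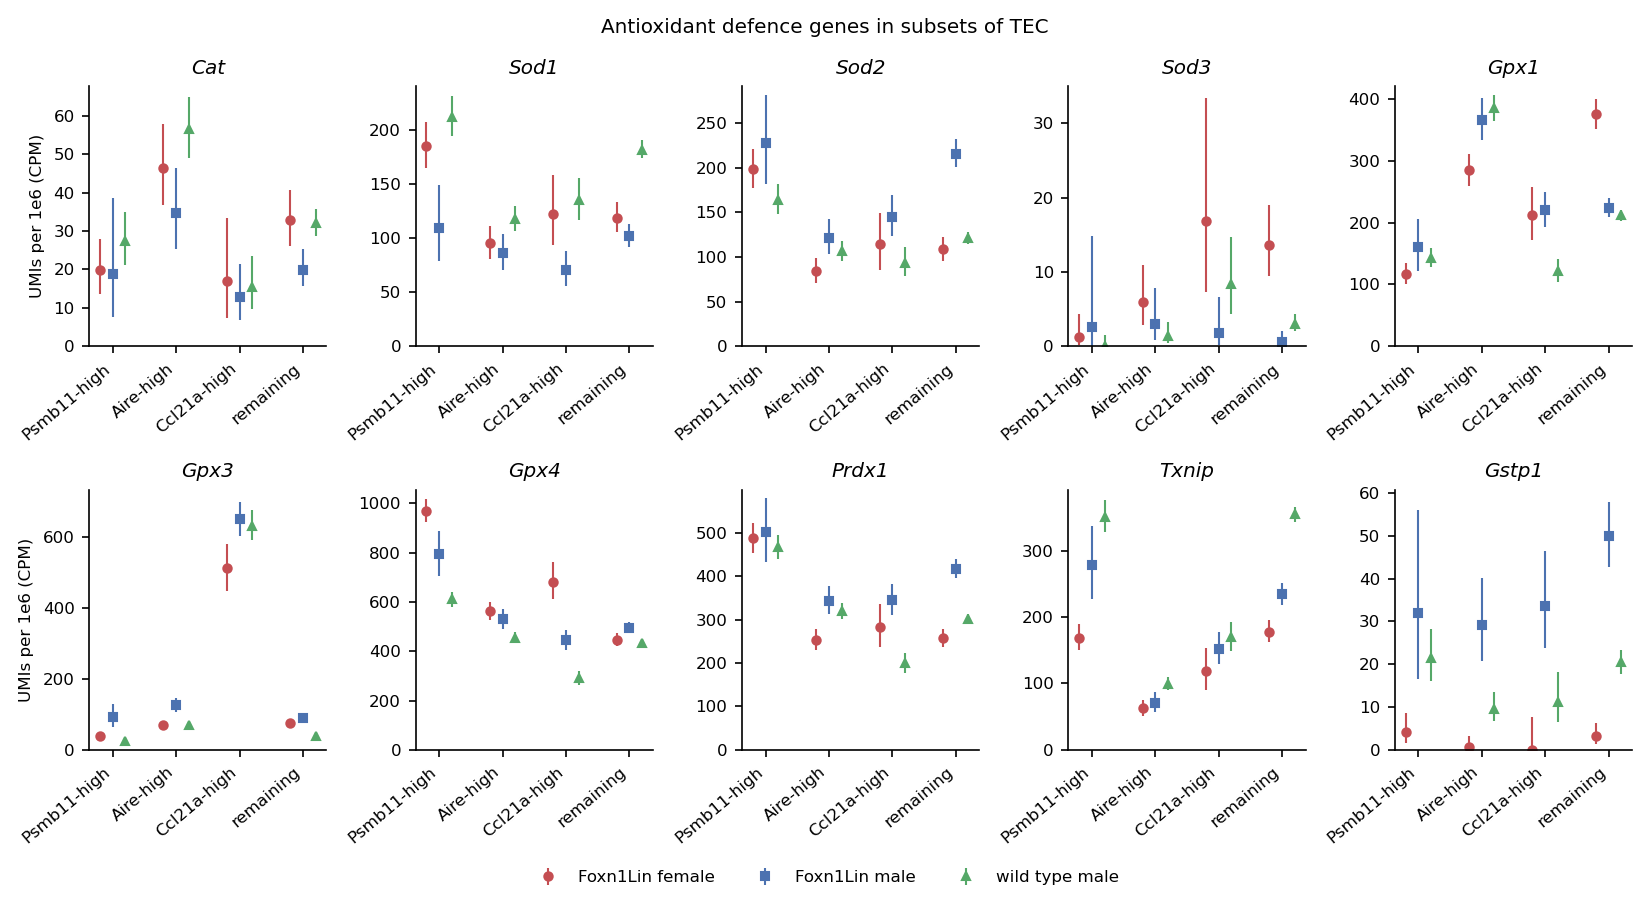
CPM of each gene (y axis, linear, from 0) in 4 subsets of TECs (x axis), with points for single libraries and 95% exact Poisson bars for counting error. Cat was highest in Aire-high TECs, Gpx3 stood at 512 to 651 CPM in Ccl21a-high TECs alone, and Txnip was lowest in Aire-high TECs.

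Gpx3 marked Ccl21a-high TECs. Gpx3 reached 512, 651 and 633 CPM there, against 75.1, 90.5 and 40.2 in remaining, 69.0, 126 and 69.7 in Aire-high and 39.0, 93.5 and 24.0 in Psmb11-high TECs, without overlap. FBs had 844, 294 and 294 CPM of Gpx3, so Ccl21a-high TECs lay below them in the Foxn1Lin female library and above them in both male libraries, a comparison that was not tested. Gpx3 was higher in Ccl21a-high than in remaining TECs (3.23 ± 0.30, edgeR adjusted P = 4.3e-04) under all 11 alternatives (2.65 to 3.39). After thinning, 38.6%, 52.1% and 43.2% of Ccl21a-high and 14.2%, 9.02% and 7.18% of remaining TECs had a Gpx3 UMI. FB markers summed to 613, 139 and 369 CPM in Ccl21a-high TECs, where FBs had 14443 to 17462 CPM, and to 1212, 421 and 384 CPM in remaining TECs.

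Txnip was lowest in Aire-high TECs, with 62.5, 70.8 and 99.5 CPM against 178, 234 and 354 in remaining TECs and 169, 278 and 351 in Psmb11-high TECs. Aire-high minus remaining TECs was -1.67 ± 0.16 (edgeR adjusted P = 3.5e-05), called in all 11 alternatives. Ccl21a-high TECs, with 118, 152 and 170 CPM of Txnip, also lay below remaining TECs (-0.77 ± 0.16, edgeR adjusted P = 0.0178), a call kept in 6 of 11 alternatives and lost without the Foxn1Lin male or wild type male library (edgeR adjusted P = 0.108 and 0.278).

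Psmb11-high TECs had the most Gpx4 and Prdx1 of the 4 subsets in each library, although in the Foxn1Lin male library they were 11 cells called by their rule only. Gpx1 stood at 117, 160 and 143 CPM in Psmb11-high TECs and at 285, 366 and 385 in Aire-high TECs (Aire-high minus Psmb11-high 1.38 ± 0.27, edgeR adjusted P = 0.0018, called in all 11 alternatives). Gpx4 reached 970, 794 and 610 CPM in Psmb11-high and 446, 496 and 435 in remaining TECs (0.70 ± 0.21, edgeR adjusted P = 0.0435, called in 4 of 11 alternatives and in none of the fits with 1 library left out, where it was 0.43 without Foxn1Lin female). Prdx1 reached 487, 502 and 467 CPM in Psmb11-high and 257, 417 and 302 in remaining TECs, which did not pass (0.57 ± 0.20, edgeR adjusted P = 0.0765). Sod3 had 2, 1 and 0 UMIs in all Psmb11-high TECs of a library, and none of its differences between subsets passed.

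Against remaining TECs, 2 of the 10 genes were called in Psmb11-high TECs (17.8% of all genes), 3 in Aire-high (39.2%) and 3 in Ccl21a-high TECs (6.21%). Between subsets, 7 were called for Aire-high minus Psmb11-high (46.4%), 4 for Aire-high minus Ccl21a-high (40.4%) and 4 for Psmb11-high minus Ccl21a-high TECs (10.5%). Parathyroid markers summed to 7315, 9496 and 4867 CPM in remaining TECs. Removal of barcodes with parathyroid UMIs took remaining TECs from 232, 271 and 534 cells to 226, 268 and 533. Cat in Aire-high minus remaining TECs then moved from 0.73 to 0.72. How much of the marker RNA left with so few barcodes was not measured, so its part in the Cat values was not tested.

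FBs were divided by Inmt, a methyltransferase gene that the study lists with Gpx3 as a mark of an intermediate FB subset, so the direction of Gpx3 was known beforehand. FBs with 2 or more Inmt UMIs (662, 196 and 404 cells) had 1312, 664 and 608 CPM of Gpx3, and FBs with none (903, 547 and 1147 cells) had 449, 163 and 178. Gpx3 was higher with Inmt in each library (1.79 ± 0.10, edgeR adjusted P = 1.5e-04), and after thinning 77.7%, 55.6% and 49.4% of FBs with Inmt against 41.5%, 22.8% and 22.7% of those without had a Gpx3 UMI. Sod3 ran the other way, with 112, 180 and 164 CPM against 163, 406 and 469 (-1.07 ± 0.17, edgeR adjusted P = 0.0117). Txnip was higher, with 194, 254 and 418 CPM against 125, 172 and 210 (0.75 ± 0.11, edgeR adjusted P = 0.00766). Cat, with 42.8, 30.1 and 45.7 CPM against 40.2, 29.5 and 40.6, did not pass (0.12 ± 0.11, edgeR adjusted P = 0.649). These 3 of 10 calls compare with 4.98% of 12719 genes tested, and all were kept in 8 of 9 alternatives, the exception being the fit without the library block.

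**Figure D4:**
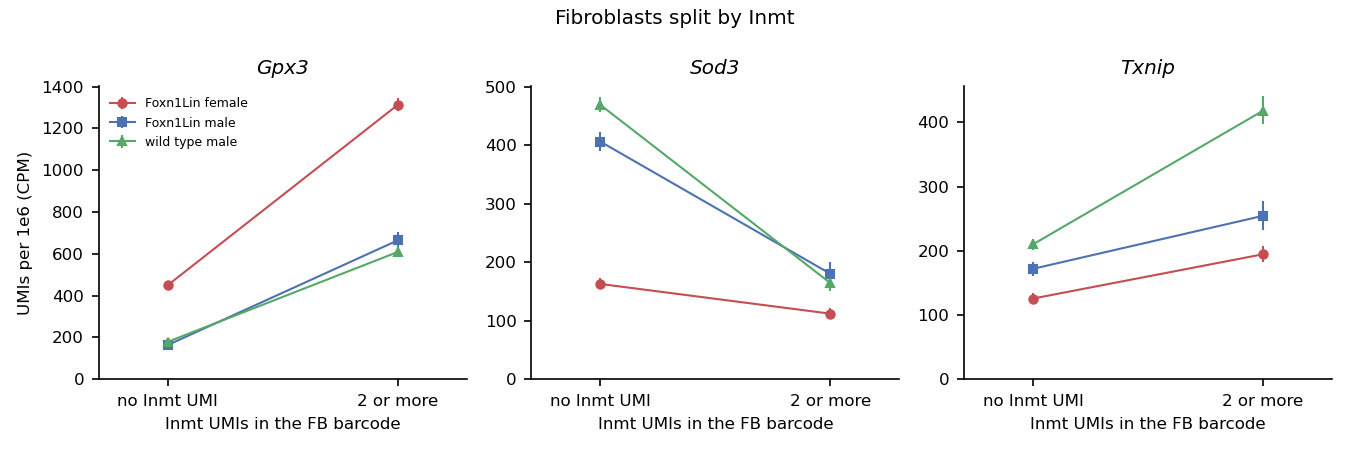
CPM of Gpx3, Sod3 and Txnip (y axis, linear, from 0) in FBs without an Inmt UMI and with 2 or more (x axis). Lines join values of the same library and bars are 95% exact Poisson intervals. With Inmt, Gpx3 and Txnip were higher and Sod3 was lower in 3 of 3 libraries.

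Mural cells were divided into those with more Acta2 than Rgs5 UMIs (245, 248 and 159 cells) and those with more Rgs5 (181, 198 and 190 cells), which separates smooth muscle from pericytes in broad terms. By edgeR 0 of 10 genes were called, where 1.22% of 9502 genes were, and by DESeq2 also 0, while 4 had an unadjusted P under 0.05. Sod3, with 97.5, 204 and 178 CPM in Acta2 and 32.5, 100.4 and 118 CPM in Rgs5 mural cells, came to 1.11 ± 0.24 (edgeR adjusted P = 0.0954). Gpx1, with 284, 351 and 268 against 170, 181 and 192 CPM, came to 0.82 ± 0.17 (edgeR adjusted P = 0.0912).

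The wider pathway was read from 7 lists with 156 genes, of which 150 were tested. In TECs against other stroma 64 of these were higher and 41 lower, beside 31.4% higher and 27.5% lower among all genes. Lists are given by counts and medians only.

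In the glutathione list 17 of 31 genes were higher and 5 lower, with a median log2 fold change of 0.91. Gpx2, the epithelial glutathione peroxidase, reached 32.8, 67.8 and 74.0 CPM in TECs and 0.274, 0.335 and 0.441 in other stroma (7.09 ± 0.28, edgeR adjusted P = 5.5e-07). Gsta1, a glutathione transferase, had 6.77, 2.17 and 6.45 CPM in TECs against 0.126, 0 and 0.136. Mgst1, a transferase of microsomal membranes, was lower (22.5, 20.3 and 24.1 CPM against 105, 104 and 83.7), as was Gpx7 (6.63, 3.71 and 5.14 against 21.4, 14.7 and 14.4), a peroxidase of the endoplasmic reticulum.

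In the thioredoxin and peroxiredoxin list 12 of 24 genes were higher and 5 lower (median 0.17). Srxn1, sulfiredoxin, which restores oxidized peroxiredoxins, had 58.8, 138 and 60.3 CPM in TECs against 23.5, 13.7 and 11.5 (2.22 ± 0.33), and Sesn2, a stress-induced sestrin, 56.1, 37.3 and 37.8 against 17.7, 13.8 and 10.9 (1.35 ± 0.14). Prdx4, the peroxiredoxin of the endoplasmic reticulum, had 37.6, 28.0 and 24.4 CPM against 65.4, 60.7 and 37.1 (-1.16 ± 0.16), and Msrb3, a methionine sulfoxide reductase, was -1.53 ± 0.13.

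In the list of the NRF2 axis and superoxide handling, 6 of 21 genes were higher and 9 lower (median -0.07). Nqo1, a quinone reductase and NRF2 target, reached 50.7, 18.1 and 35.1 CPM in TECs against 5.38, 4.42 and 5.76, and Me1, malic enzyme, 116, 82.0 and 114 against 21.7, 13.1 and 22.4. Mafk (-1.59 ± 0.16), a small partner of NRF2, and Blvrb (-1.11 ± 0.18), a biliverdin reductase, were lower. The transcript of NRF2 itself, Nfe2l2, had 152, 137 and 141 CPM in TECs against 248, 261 and 202, and this gene was added after its values were seen.

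Among genes of the peroxisome, the organelle of catalase, 13 of 31 were higher and 9 lower (median 0.18). Pex11a, which promotes peroxisome division, had 13.1, 10.5 and 13.4 CPM in TECs against 3.63, 1.75 and 2.68 (2.27 ± 0.25), and Pex26, an import factor, was 1.17 ± 0.22. Abcd2, a transporter of very long chain fatty acids, had 1.47, 0.619 and 0.765 CPM against 10.9, 14.2 and 13.5 (-3.08 ± 0.40), and Hao1, a hydroxyacid oxidase, was -2.24 ± 0.83.

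Among genes that produce oxidants 7 of 21 were higher and 8 lower (median -0.49). Ncf1, a subunit of the phagocyte oxidase, had 97.2, 40.4 and 44.3 CPM in TECs against 6.60, 0.981 and 2.74, and Nos2, inducible nitric oxide synthase, 108, 88.8 and 75.7 against 13.3, 4.89 and 7.05. Nos3, the endothelial synthase (-3.61 ± 0.58), and Nox4 (-3.09 ± 0.71), an oxidase that releases hydrogen peroxide, were lower. Ncf1 is also expressed by hematopoietic cells, whose 10 markers summed to 797, 497 and 447 CPM in TECs, 170, 74.9 and 207 in ECs and 77.7, 18.4 and 20.3 in FBs, and their part in its value was not tested.

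In the metal binding list 6 of 10 genes were higher and 1 lower (median 0.50), with Mt3, a metallothionein (5.40 ± 0.49), and Hp, haptoglobin (2.02 ± 0.57), higher, and Cp, ceruloplasmin, a copper ferroxidase, lower (26.2, 24.6 and 52.0 CPM against 282, 528 and 687). In the list of FoxO and PGC factors 3 of 12 were higher and 4 lower (median -0.04). Ppargc1a, a coactivator of mitochondrial and antioxidant genes, had 28.6, 37.3 and 45.6 CPM in TECs against 5.65, 4.38 and 4.61 (3.48 ± 0.27), and Mlxipl, a glucose-responsive factor, was 2.09 ± 0.29. Pparg, the regulator of fat storage genes, had 6.63, 2.01 and 1.86 CPM against 144, 97.8 and 90.7 (-4.68 ± 0.48), and Foxo4 was -1.48 ± 0.20. All list genes given with a value of the difference passed the edgeR test at an adjusted P of 0.05.

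Across the 12 sums of 4 classes in 3 libraries, with the library mean taken off, the genes most like Cat were Acbd3 (Pearson's r = 0.977), Nucb1 (0.960), Canx (0.960), Atp6ap1 (0.959) and Adamtsl3 (0.956). As with Cat, their mean CPM was highest in FBs, from 68.2 in TECs to 87.2 in FBs for Acbd3 and from 7.39 to 173 for Adamtsl3. Among the other 9 antioxidant genes r with Cat ran from -0.56 for Gpx4 to 0.67 for Prdx1. The 12 points share libraries and depth, and these values are descriptions.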

How the data were processed

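CD45- thymic cells of 3 libraries (10x Genomics) were measured. The deposited matrices give UMI counts as whole numbers, per gene and barcode. Per the file headers the authors ran Cell Ranger 7.0.1, with an mm10 reference to which tdTomato-WPRE sequences were added, and normalization was not part of it. Deposited library summaries were not used. Of the called barcodes, those with both 1000 genes or fewer and at least 20% mitochondrial counts (138, 149 and 222) were left out. Scrublet (scanpy 1.11.5) found only 7, 23 and 11 doublets by its own threshold, so doublets were kept, and removal of the highest 3.9% of scores was an alternative. Empty droplets were barcodes of 123 to 494, 22 to 87 and 26 to 104 UMIs.

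Counts were summed per library and class, and CPM was scaled to 1000000 UMIs of that sum. Tests used edgeR 4.0.16 (quasi-likelihood, TMM, low-count filter, library as block because all classes of a library come from the same cell suspension) in R 4.3.3, with Benjamini-Hochberg adjustment over all genes tested, and DESeq2 1.42.0 as an alternative. SEs were derived from the F statistic. Scripts were tested on simulated counts. Intervals are 95% exact (scipy 1.17.1) and cover counting error only. Libraries were not tested against each other (n = 1 each), and nothing in the sources used here states that they came from separate batches or days. Named genes of each list were up to 2 per direction with the largest called difference of the same sign in each library. The members and lists were chosen with earlier results of these data known. Other settings tried were scaling, filters, doublets, class thresholds, hematopoietic, parathyroid or empty-droplet RNA, thinning and each library left out.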

Additional observations from a re-analysis of the deposited data

Results flagged for a closer look

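Some differences went in opposite directions in a pair of libraries by more than counting error, as log2 ratios of CPM with 95% intervals that excluded 0. Each library is the only one of its group, and the difference between libraries was not tested.

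Gpx1 in TECs against other stroma was 0.29 in the Foxn1Lin female and -0.29 in the Foxn1Lin male library. For Gpx1, these libraries gave 0.32 and -0.40 for TEC minus EC, 0.43 and -0.26 for TEC minus FB, -0.19 and 0.19 for EC minus mural, and -0.40 and 0.71 for Aire-high minus remaining TECs. Remaining TECs of the Foxn1Lin female library had 375 CPM of Gpx1, against 224 and 212 in the other libraries.

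Gpx3 in TECs against other stroma was -0.85 in the Foxn1Lin female and 1.16 in the Foxn1Lin male library. FB minus mural for Gpx3 was 2.81, -0.18 and 0.40 in the 3 libraries in the usual order. Acta2 minus Rgs5 mural cells gave -0.78 and 0.47 in the lineage trace libraries for Gpx3.

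Gpx4 gave 0.086 in the Foxn1Lin female and -0.21 in the Foxn1Lin male library for EC minus FB, 0.62 and -0.16 for Ccl21a-high minus remaining TECs, -0.28 and 0.25 for Aire-high minus Ccl21a-high TECs, and -0.24 and 0.33 for Acta2 minus Rgs5 mural cells. Txnip in TECs against other stroma was -0.48 in the Foxn1Lin male and 0.10 in the wild type male library.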

How the results depend on the processing

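Of 72 differences recomputed, 61 were called, and their 870 alternative values kept the call in 691 cases, lost it in 176 and changed sign in 3. In all alternatives tried, 15 differences kept their call.

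Cat in TECs minus other stroma (-0.30) became -0.24 with DESeq2 size factors, 0.040 with library size alone, -0.23 with the DESeq2 Wald test, -0.28 without the low-count filter, -0.25 with doubled class thresholds, -0.28 without hematopoietic UMIs, -0.41 with cells thinned to 2000 UMIs and -0.24 with 10% of empty-droplet RNA taken off, and all of these missed the threshold. It ranged from -0.33 to -0.25 with 1 library left out. The cause was not tested beyond scaling.

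With library size alone, TEC minus other stroma became 0.11 for Sod1, 0.10 for Sod2, 0.0026 for Gpx1 and 0.20 for Prdx1, and Cat in TEC minus EC 0.14. Gpx3 in TECs minus other stroma ranged from -0.89 (without Foxn1Lin male) to 0.15 (without Foxn1Lin female) with 1 library left out, and became 0.35 with empty-droplet RNA taken off. Cat in TECs minus mural cells (-0.02) became 0.030 with DESeq2 size factors, 0.30 with library size alone, 0.032 with the DESeq2 Wald test, 0.073 without the low-count filter, 0.0084 with doubled class thresholds, 0.031 without other markers and 0.065 with empty-droplet RNA taken off, and -0.028 (without Foxn1Lin male) to 0.016 (without wild type male) with 1 library left out, none called.

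Of the 10 genes, 6 were called in TECs against other stroma, where 59.0% of all genes were. This was 3 with DESeq2 size factors (59.0% of all genes), library size alone (62.8%), the DESeq2 Wald test (60.7%), no low-count filter (40.2%) or empty-droplet RNA taken off (55%), 2 with thinned cells (48.3%), and 1 (without Foxn1Lin male, 43.1%), 2 (without wild type male, 43.5%) or 5 (without Foxn1Lin female, 55%) with 1 library left out. Over pairs of classes the 29 calls (46.0% of all tests) became 13 without Foxn1Lin male (27.5%), 14 without wild type male (28.6%) and 32 without Foxn1Lin female (42.9%). Over TEC subsets the 23 calls (26.7% of all tests) became 10 without wild type male (12.7%), 14 without Foxn1Lin male (18.4%), 16 without Foxn1Lin female (20.8%) and 13 with thinned cells (26.0%). Between mural subsets, 0 calls (1.22%) became 2 without the low-count filter (5.19%) or with thinned cells (5.15%), and 0 to 3 with 1 library left out, the 3 being without the Foxn1Lin female library (6.91%). With library size alone the pathway genes called went from 64 to 82 higher and from 41 to 26 lower in TECs, while all genes went from 31.4% to 45.8% higher and from 27.5% to 17.0% lower.

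In the fits without the replicate block, Cat in TECs minus other stroma was -0.29 (edgeR adjusted P = 0.231), and the calls fell to 2 for TECs against other stroma (46.6% of all genes), 14 over pairs of classes (33.7%), 13 over TEC subsets (20.0%) and 0 for FBs by Inmt (0.0157%). The library pairs the classes because all classes of a library come from the same cell suspension.

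The mean share of cells with a Cat UMI without thinning, at 1000 and at 4000 UMIs was 27.5%, 2.71% and 8.75% in TECs, 17.3%, 2.72% and 10.4% in ECs, 25.8%, 3.03% and 13.3% in FBs, and 12.9%, 2.83% and 8.70% in mural cells. Cat did not pass the low-count filter in thinned TEC subsets. Removal of hematopoietic and parathyroid barcodes within TECs was chosen after seeing the data.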
